A study of Mus musculus with 5 samples.

Results

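Lyz1 and Lyz2 are the mouse genes of the lysozymes known as P and M, and they are 2 of the 21617 genes counted in 41191 single cells of 5 libraries. Both were chosen by name with their levels in these libraries already known, so the levels and differences given here are descriptions of these libraries. The libraries came from cells of foreign body granulomas around silk at 4 weeks, silk at 2 weeks, a sponge at 4 weeks and a sponge at 2 weeks, and from control macrophages elicited with thioglycollate, an irritant injected to draw macrophages into a body cavity. A foreign body granuloma is the lump of macrophages and fibrous tissue that walls off an implant. The sources used here do not give the genotype, strain, sex, age or number of the mice, or whether several were pooled in a library. The control is a population of elicited cells and not a piece of tissue, so implant, site and preparation cannot be told apart in any comparison with it.

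Lysozyme cleaves the peptidoglycan of bacterial walls, and the mouse carries a duplicated pair of genes for it. Lysozyme M is the form of macrophages and neutrophils, in which Lyz2 is so steadily expressed that its locus is widely used to drive recombinase in myeloid cells. Lysozyme P is best known as a product of the Paneth cells of the small intestine.

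The genes lie next to each other on the minus strand of chromosome 10, with 5475 bases between them. In the GENCODE annotation of GRCm38, Lyz1 (ENSMUSG00000069515.6) spans chr10:117287797-117292868 and Lyz2 (ENSMUSG00000069516.8) spans chr10:117277331-117282321, each with 4 exons. The stretches 250 to 51 bases before the RefSeq start of each gene (GRCm38.p6, minus strand) are shown for where these regions are alike and unlike. They cover chr10:117292919-117293118 for Lyz1 and chr10:117282323-117282522 for Lyz2. Capitals mark bases that differ from, or have no partner in, the other gene when the stretches are aligned.
Lyz1: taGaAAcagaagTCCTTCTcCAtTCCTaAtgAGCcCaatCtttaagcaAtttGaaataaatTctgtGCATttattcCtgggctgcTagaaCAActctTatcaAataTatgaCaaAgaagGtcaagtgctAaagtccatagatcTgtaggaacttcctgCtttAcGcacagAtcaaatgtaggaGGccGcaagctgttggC
Lyz2: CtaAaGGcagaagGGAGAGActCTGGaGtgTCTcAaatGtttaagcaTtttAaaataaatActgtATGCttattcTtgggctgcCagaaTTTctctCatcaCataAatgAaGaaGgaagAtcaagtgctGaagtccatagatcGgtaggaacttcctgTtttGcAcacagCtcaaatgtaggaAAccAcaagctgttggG
Of 198 aligned bases, 150 were identical (75.8%). The differences gathered far from the start: 80 of the first 120 bases shown for Lyz1 and 70 of its last 80 had an identical partner, as did 50 of the 50 bases just before the RefSeq start. The GENCODE start of Lyz2, at 117282321, lies upstream of its RefSeq start, so nearly all of those 50 bases of Lyz2 are in its GENCODE exon 1. From 250 bases before to 50 after the start, 4 motifs were searched on both strands. TTGCNNAA, a form of the site of the myeloid factors C/EBP, was found 209 bases before the start of Lyz1 and not in the window of Lyz2, and 10.8% of 32851 RefSeq promoters of that length hold it. GAGGAA, a form of the site of PU.1, was in neither window, nor were the AP-1 site TGANTCA and the E-box CACGTG. Of all promoters, 28.3%, 7.81% and 7.15% hold them, in that order. The search describes these letters and shows no binding.

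The transcripts are near copies as well. Those of 1263 bases (Lyz1) and 1316 bases (Lyz2) were identical at 96.0% of aligned positions, and at 97.4% over the last 500 bases, the end from which a 3′ library is read. Of 411 windows of 90 bases in that end of Lyz1, 15 occur unchanged in Lyz2, and the median window differed from its closest match by 5 bases. The sources used here give neither read length nor the handling of reads that match both genes, so the split of reads between the genes is uncertain to that extent. In subcluster C3 of sponge at 2 weeks, Lyz1 made up 0.162% of 33896 lysozyme counts (exact 95% interval 0.122% to 0.211%), so Lyz2 molecules counted as Lyz1 were no more than that share there.

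Counts are unique molecular identifiers (UMIs), tags that mark each captured transcript. The libraries held 1873 to 12347 cells and 11207419 to 96066597 UMIs, with medians of 3818 to 7109 UMIs per cell. Silk at 4 weeks was the smallest library. The classes and subclusters are the authors' deposited ones. The macrophage class is their class of monocytes, macrophages and dendritic cells without subcluster C9, which held dendritic cell markers in each library and mast cell markers in both sponge libraries and the control, and it counted 1045 cells in silk at 4 weeks, 7350 in silk at 2 weeks, 4605 in sponge at 4 weeks, 7113 in sponge at 2 weeks and 7783 in the control. All 9 macrophage markers, among them Adgre1, Csf1r and C1qa, were detected in this class in each library, and the 1 Paneth cell marker counted, Mmp7, had no UMI in it. In the whole series 153 cell barcode sequences, 306 cells, occurred in more than 1 library. Each condition was 1 library. No test between conditions was made, and every interval is a 95% interval that covers counting error only.

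Lyz1 was highest in silk at 4 weeks and lowest in sponge at 2 weeks, while Lyz2 was far more abundant and differed less between libraries. Levels are given in CPM, the UMIs of a gene per 1000000 UMIs of the summed class. Lyz1 stood at 2603 CPM in silk at 4 weeks, 549 CPM in silk at 2 weeks, 839.9 CPM in sponge at 4 weeks, 125 CPM in sponge at 2 weeks and 320.2 CPM in the control, from 16503, 23415, 17492, 5279 and 23805 UMIs. From high to low, the levels thus ran from silk to sponge at 4 weeks, then silk at 2 weeks, the control and last sponge at 2 weeks, and no 2 counting intervals met. Lyz2 stood at 17301 CPM in silk at 4 weeks, 16035 CPM in silk at 2 weeks, 12662 CPM in sponge at 4 weeks, 10785.5 CPM in sponge at 2 weeks and 19376 CPM in the control. For Lyz2 the control was highest and silk exceeded sponge at both times. The spread between animals is unknown, so the order holds for these libraries.

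Between materials, Lyz1 was 3.10-fold higher in silk than in sponge at 4 weeks (log2 1.63, interval 1.60 to 1.66) and 4.38-fold higher at 2 weeks (log2 2.13, 2.09 to 2.18, but 1.13 with the same weight for each subcluster in both libraries). Between times, it was 4.75-fold higher at 4 than at 2 weeks in silk (log2 2.25, 2.22 to 2.28) and 6.71-fold higher in sponge (log2 2.75, 2.70 to 2.79). As background, 2-fold was reached upward by 0.42% of 3095 genes in silk over sponge at 4 weeks, 1.75% of 3206 at 2 weeks, 0.833% of 3121 over time in silk and 1.86% of 3218 over time in sponge. Lyz1 was chosen for these differences, so nothing is read from its place among them. The 4 comparisons share libraries in pairs and are not independent of one another.

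Lyz2 did not reach 2-fold in any of these 4. Its log2 ratios were 0.45 for silk over sponge at 4 weeks, 0.57 at 2 weeks, 0.11 for 4 over 2 weeks in silk and 0.23 in sponge. Against the control, Lyz1 was higher in silk at 4 weeks (log2 3.02), silk at 2 weeks (0.78) and sponge at 4 weeks (1.39) and lower in sponge at 2 weeks (-1.36, interval -1.40 to -1.31). Lyz2 was below the control in each granuloma, by log2 ratios of -0.16, -0.27, -0.61 and -0.85 in the order silk at 4 weeks, silk at 2 weeks, sponge at 4 weeks, sponge at 2 weeks. In these comparisons with the control, 2-fold was reached upward by 9.97%, 10.9%, 11.0% and 11.9% of genes and downward by 5.15%, 5.85%, 5.68% and 5.67%, in the same order.

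The share of Lyz1 among lysozyme UMIs does not depend on how the libraries are scaled. It was 13.1% in silk at 4 weeks (interval 12.9% to 13.3%), 3.31% in silk at 2 weeks (3.27% to 3.35%), 6.22% in sponge at 4 weeks (6.13% to 6.31%), 1.15% in sponge at 2 weeks (1.12% to 1.18%) and 1.63% in the control (1.61% to 1.65%). Put as a ratio, there were 6.65 Lyz2 UMIs for each Lyz1 UMI in silk at 4 weeks and 86.2 in sponge at 2 weeks. Since a 3′ tag is counted once per transcript and the transcripts are of like length, no length correction was applied.

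Lysozyme UMIs were also found in cells not known for it. In fibroblasts Lyz1 stood at 4.77, 24.1, 22.7 and 3.63 CPM and Lyz2 at 113, 779, 395 and 410.05 CPM in silk at 4 weeks, silk at 2 weeks, sponge at 4 weeks and sponge at 2 weeks. Their Lyz1 share, 4.04%, 3.00%, 5.42% and 0.878%, was lower than that of the macrophages in each library and close to it outside silk at 4 weeks. In control B cells, with 67.9 CPM of Lyz1 and 4102 CPM of Lyz2, the Lyz1 share was 1.63%, the same as in the control macrophages. Macrophages held 99.2%, 97.4%, 95.9%, 94.7% and 98.4% of all Lyz1 UMIs of silk at 4 weeks, silk at 2 weeks, sponge at 4 weeks, sponge at 2 weeks and the control.

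**Figure D1:**
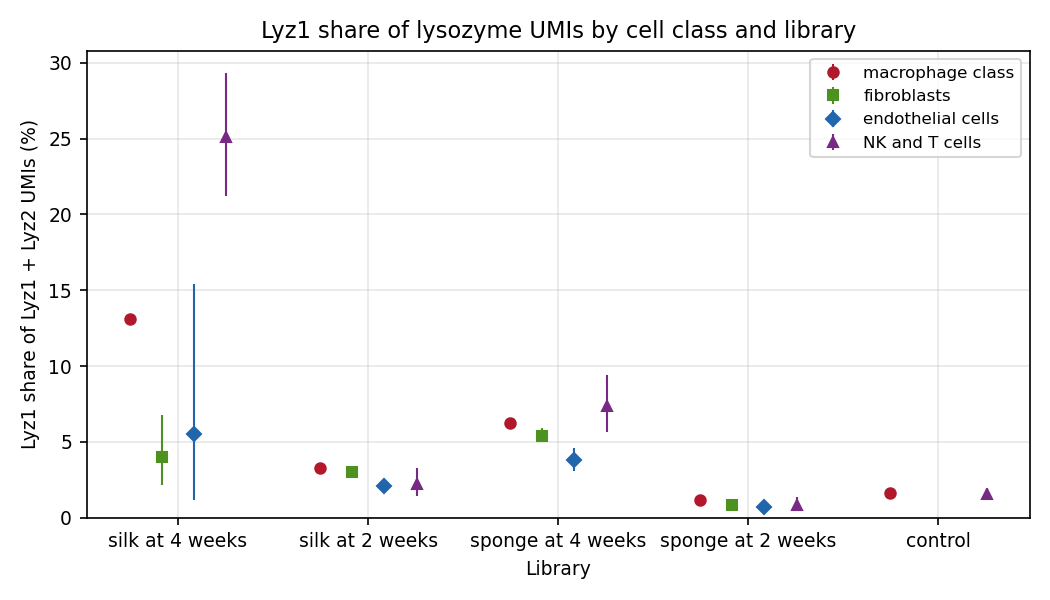
Lyz1 as a percent of Lyz1 plus Lyz2 UMIs (vertical axis) in 4 cell classes of each library (horizontal axis), with exact 95% intervals for counting error; fibroblasts and endothelial cells of the control, with few lysozyme UMIs, are not drawn. The macrophage share runs from 1.15% in sponge at 2 weeks to 13.1% in silk at 4 weeks, and NK and T cells of silk at 4 weeks stand apart at 25.1%.

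Within the granuloma macrophages, C7 was the subcluster that carried Lyz1. It held 86.3% of macrophage Lyz1 UMIs in silk at 4 weeks, 93.3% in silk at 2 weeks, 84.8% in sponge at 4 weeks and 60.1% in sponge at 2 weeks, with 47.5%, 60.7%, 45.1% and 15.8% of the macrophages. C7 cells were deep, and they also held 73.1%, 80.8%, 67.3% and 25.6% of all macrophage UMIs and 79.8%, 86.5%, 74.2% and 31.8% of those of Lyz2, in the same order. Its Lyz1 level was 3073 CPM in silk at 4 weeks (496 cells), 633 CPM in silk at 2 weeks (4461 cells), 1058 CPM in sponge at 4 weeks (2078 cells) and 294 CPM in sponge at 2 weeks (1122 cells). The order was the same as in the whole class. Lyz2 in the same cells was 18887, 17157, 13963 and 13369 CPM.

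In C7 the log2 ratio of Lyz1 was 1.54 for silk over sponge at 4 weeks (1.50 to 1.57), 1.11 at 2 weeks (1.06 to 1.16), 2.28 for 4 over 2 weeks in silk (2.25 to 2.31) and 1.85 in sponge (1.79 to 1.91). For Lyz2 the same 4 ratios were 0.44, 0.36, 0.14 and 0.06. Of the genes compared in C7, 0.629%, 0.979%, 0.911% and 1.03% reached 2-fold upward in these comparisons. Other markers differed between the same C7 cells: those of fibroblasts summed to 55.0, 95.05, 504 and 336 CPM and those of neutrophils to 98.1, 177, 113 and 194 CPM in silk at 4 weeks, silk at 2 weeks, sponge at 4 weeks and sponge at 2 weeks, and their part in the result was not tested. The median percent of mitochondrial UMIs in C7 was 4.61%, 3.94%, 7.35% and 3.68%, in the same order, and was thus highest in sponge at 4 weeks, where 1137 of the 4605 macrophages exceeded 10%. Without the cells over 10% in each library, the log2 ratio of Lyz1 in macrophages for 4 over 2 weeks in sponge was 2.67.

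C6, whose cells held few UMIs (medians of 948, 1652, 1374 and 1720 in the same order), showed the same order at lower levels. Its Lyz1 was 1461 CPM in silk at 4 weeks, 174 CPM in silk at 2 weeks, 244 CPM in sponge at 4 weeks and 65.9 CPM in sponge at 2 weeks. The log2 ratios were 2.58 for silk over sponge at 4 weeks, 1.40 at 2 weeks, 3.07 for 4 over 2 weeks in silk and 1.89 in sponge, where 1.14%, 0.86%, 0.942% and 0.738% of genes in C6 reached 2-fold upward. C6 held 30.1% of the macrophages of silk at 4 weeks, 9.94% of their UMIs, 5.58% of their Lyz1 UMIs and 6.998% of their Lyz2 UMIs.

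**Figure D2:**
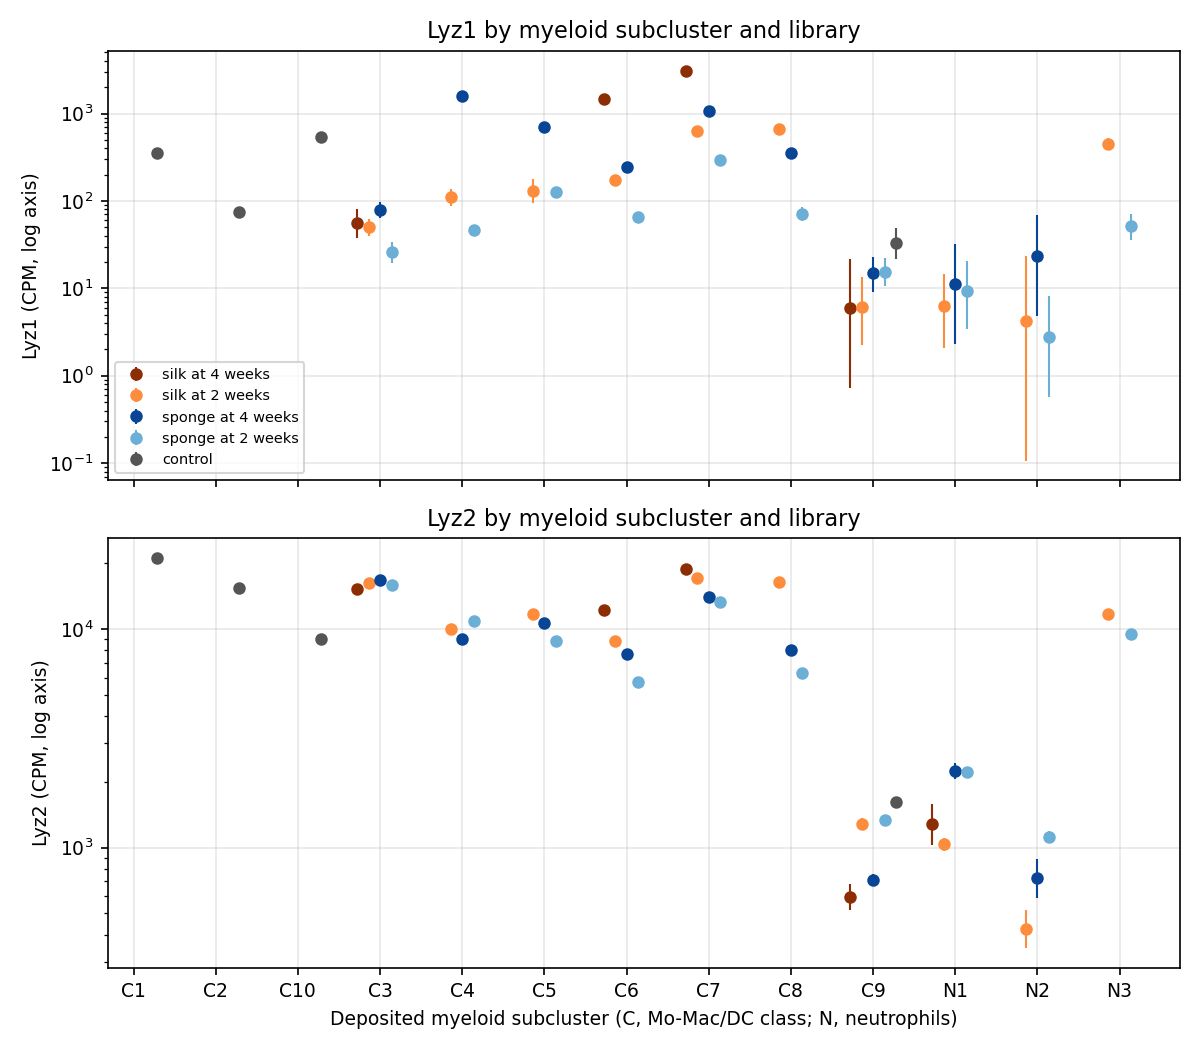
Lyz1 (upper panel) and Lyz2 (lower panel) in CPM on log axes for each deposited myeloid subcluster with at least 50 cells in a library; points are libraries and bars are 95% counting intervals, and N1 of silk at 4 weeks, with no Lyz1 UMI, has no point in the upper panel. In C7 the Lyz1 points of the 4 granulomas spread from 294 to 3073 CPM and those of Lyz2 from 13369 to 18887 CPM.

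C3 had Lyz2 without much Lyz1. Monocyte markers, among them Ly6c2, Ccr2 and Plac8, summed to 6942, 8090, 7580 and 9590 CPM in C3 of silk at 4 weeks, silk at 2 weeks, sponge at 4 weeks and sponge at 2 weeks, against 195, 266, 117 and 143 CPM in C7. C3 held 15209, 16265, 16739 and 15855 CPM of Lyz2, within the range of C7, but only 56.6, 50.6, 78.3 and 25.8 CPM of Lyz1. Lyz1 in C3 was 1.60 (log2, interval 1.10 to 2.11) higher at 4 than at 2 weeks in sponge, where 2.01% of genes in C3 reached 2-fold upward. In sponge at 2 weeks 1 cell held 28 of the 55 UMIs, and without the highest cell of each library the levels were 60.3 CPM at 4 weeks and 12.7 CPM at 2 weeks (log2 2.23). For silk over sponge at 2 weeks the log2 ratio of Lyz1 was 0.97 (0.46 to 1.50), beside 0.488% of genes. There 1 cell held 36 of the 81 UMIs of silk at 2 weeks. Without the highest cell of each library the levels were 28.2 CPM in silk and 12.7 CPM in sponge. In silk over time the ratio was 0.18 (-0.50 to 0.79), and for silk over sponge at 4 weeks it was -0.45 (-1.13 to 0.15), intervals that include 0, beside 0.528% and 0.154% of genes.

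Some of these C3 shares were close to those of fibroblasts. When each cell was thinned to 500 UMIs, 2.42%, 0.748%, 3.30% and 0.823% of C3 cells held a Lyz1 UMI, against 0%, 1.38%, 0.746% and 0.173% of fibroblasts, in the order silk at 4 weeks, silk at 2 weeks, sponge at 4 weeks, sponge at 2 weeks. After thinning, the C3 share of silk at 2 weeks was at or below that of the fibroblasts, so by this measure it is not told apart from background. Its summed level, 50.6 CPM, was above the 24.1 CPM of the fibroblasts, and the source of these UMIs was not tested. Unthinned, the shares were 7.09%, 8.23%, 10.5% and 5.14% of C3 cells and 3.99%, 6.77%, 7.71% and 2.68% of fibroblasts, at medians of 3903, 3818, 3526 and 4469 UMIs per C3 cell and 6909, 11902, 11192.5 and 14348 per fibroblast. In C7 a Lyz1 UMI was found in 61.9%, 31.9%, 42.7% and 26.6% of cells, and after thinning in 40.3%, 12.1%, 19.6% and 7.31%.

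C5 cells had the highest macrophage markers, which summed to 13577, 14138 and 13144 CPM in silk at 2 weeks, sponge at 4 weeks and sponge at 2 weeks. Their Lyz1 was 131, 694 and 125 CPM there, so it was higher at 4 than at 2 weeks in sponge (log2 2.47, interval 2.34 to 2.60), where 0.398% of the genes in C5 reached 2-fold upward. Silk and sponge at 2 weeks did not differ beyond counting error in C5, with a log2 ratio of 0.09 (-0.40 to 0.51), beside 2.11% of genes. Silk at 4 weeks had 35 cells of C5 and was not compared.

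C4 and C8 were small in some libraries and rested on few cells. C4 of sponge at 4 weeks, with 71 cells, read 1573 CPM of Lyz1, but 2 of its cells held 316 and 139 of its 488 UMIs, and without them the level was 115 CPM. In C4 of silk at 2 weeks, with 139 cells, it was 110.1 CPM, of which 37 and 26 of 78 UMIs came from 2 cells, and in C4 of sponge at 2 weeks, with 2542 cells, it was 46.9 CPM. C8 read 663, 354 and 71.3 CPM in silk at 2 weeks, sponge at 4 weeks and sponge at 2 weeks, from 61, 90 and 133 cells. The C8 ratio of 4 over 2 weeks in sponge, log2 2.31, became -0.042 after thinning. Among all genes, 1.77% in C4 and 3.4% in C8 reached 2-fold upward for silk over sponge at 2 weeks, and 4.65% and 2.32% for 4 over 2 weeks in sponge.

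In the control, C1 was the main macrophage subcluster and held 83.4% of macrophage Lyz1 UMIs. Lyz1 was 352 CPM and Lyz2 21163 CPM in C1 (6476 cells), against 74.8 and 15350.1 CPM in C2 (706 cells) and 539.8 and 8976 CPM in C10 (550 cells), whose dendritic cell markers summed to 816 CPM. No macrophage subcluster had 50 cells both in the control and in a granuloma, so the comparison with the control is one between different subclusters.

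Neutrophils, a known source of lysozyme M, had less Lyz2 as a class than the macrophage class. Their subclusters N1 and N2 had almost no Lyz1, but N3 had more. In the neutrophil subcluster N1, Lyz2 was 1289, 1036, 2242 and 2228 CPM in silk at 4 weeks, silk at 2 weeks, sponge at 4 weeks and sponge at 2 weeks, and Lyz1 had 0, 5, 3 and 6 UMIs. In the NK and T cells of these libraries Lyz2 was 863, 1269, 736 and 970.2 CPM, so in silk at 2 weeks the N1 level was not above that of cells not known for lysozyme and is read as background. N2 had 425, 725 and 1123 CPM of Lyz2 and 1, 3 and 3 Lyz1 UMIs in silk at 2 weeks, sponge at 4 weeks and sponge at 2 weeks. In silk at 2 weeks and sponge at 4 weeks the Lyz2 of N2 was below that of the NK and T cells. Against fibroblasts it was lower in silk at 2 weeks (779 CPM in fibroblasts) and higher in sponge at 4 weeks (395 CPM in fibroblasts). The source of these UMIs was not tested either. The 0 Lyz1 UMIs of N1 in silk at 4 weeks came from 59 cells, which allows a share of cells with a UMI of up to 5.08% (3 of 59, the limit used for a count of 0). N3 read 445 CPM of Lyz1 in silk at 2 weeks and 51.3 CPM in sponge at 2 weeks, with 11699.5 and 9545 CPM of Lyz2, and 64 and 49 of the 166 Lyz1 UMIs of silk at 2 weeks came from 2 of 59 cells. Macrophage markers summed to 2606 and 4328 CPM in N3, against 324 and 538 CPM in N1 of the same libraries, and their part in the N3 levels was not tested.

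The difference in the class level can be split exactly into the part from levels within subclusters and the part from the makeup of the class. With the mean of both libraries' UMI shares as weights, levels within subclusters made up 98.5% of the Lyz1 difference of silk over sponge at 4 weeks and 104% of that of 4 over 2 weeks in silk, of which C7 alone gave 80.2% and 91.4%. At 2 weeks levels made up 52.8% of the silk over sponge difference and makeup 47.2%, since C7 supplied 80.8% of macrophage UMIs in silk and 25.6% in sponge, and C4 1.66% and 39.5%. C7 gave 42.7% by its level and 16.5% by its share, and C4 gave 23.1% by its share.

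For 4 over 2 weeks in sponge, C7 gave 49.7% by its level and 11.3% by its share. C4 gave 43.7% by its level there, a value that rests on the same 2 cells and on the weights: it was 3.18% with the UMI shares of 4 weeks and 84.2% with those of 2 weeks. With the weights of the first or the second library of each comparison, the part of the C7 level was 83.6% or 76.9% for silk over sponge at 4 weeks, 64.9% or 20.6% at 2 weeks, 86.8% or 96.0% for time in silk and 72.0% or 27.4% for time in sponge. For Lyz2, levels within subclusters made up 89.2%, 51.8%, 121% and 24.4% of these 4 differences. With the weights of the first or the second library, the part of levels at 2 weeks was 70.9% or 34.8% for Lyz1 and 69.0% or 34.6% for Lyz2, and for Lyz2 over time in sponge it was 47.6% or 1.21%.

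**Figure D3:**
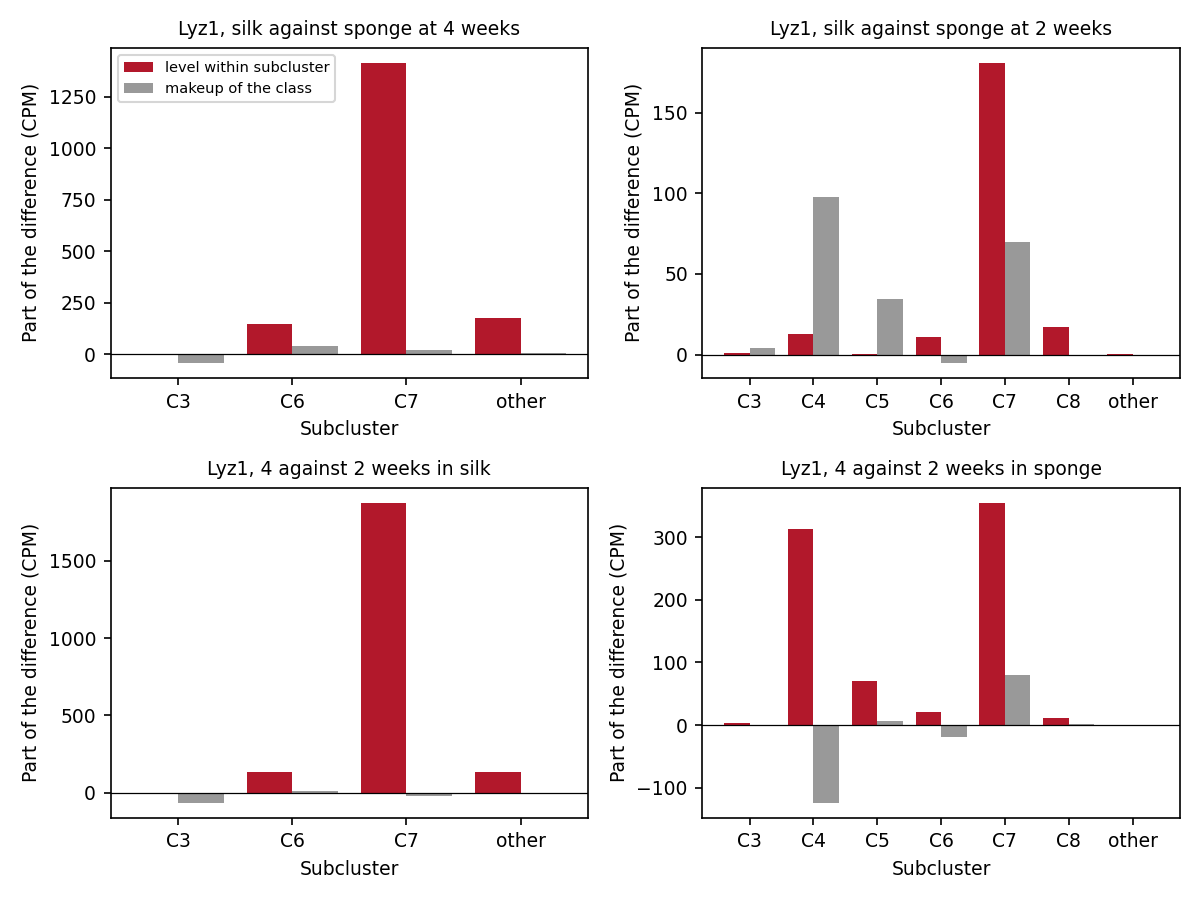
Split of the Lyz1 difference between libraries (CPM, vertical axes, with scales that differ between panels) by subcluster (horizontal axes), into the level within a subcluster (red) and the makeup of the class (grey), with mean weights; subclusters under 50 cells in either library are pooled as other. The red bar of C7 is the tallest in each panel, and the C4 bar of 4 against 2 weeks in sponge rests on 2 cells.

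Lyz1 was also uneven among the cells of C7. The median C7 cell held 2 Lyz1 UMIs in silk at 4 weeks and 0 in each of the other granulomas, while the highest cell held 726, 445, 497 and 349. The top 10% of C7 cells held 63.0%, 87.5%, 77.0% and 89.9% of the Lyz1 UMIs of silk at 4 weeks, silk at 2 weeks, sponge at 4 weeks and sponge at 2 weeks, but 41.4%, 39.1%, 42.6% and 43.2% of those of Lyz2. Cells with more Lyz1 than Lyz2 UMIs numbered 26, 22, 21 and 2.

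The share of C7 cells at or above 1000 CPM of Lyz1 was 42.1% in silk at 4 weeks, 12.8% in silk at 2 weeks, 20.2% in sponge at 4 weeks and 7.31% in sponge at 2 weeks. At or above 5000 CPM it was 19.6%, 2.94%, 4.43% and 1.07%. Among cells in which Lyz1 was detected, the median was 2514, 566, 883 and 273 CPM. Both the share of cells with Lyz1 and the level in them thus followed the order of the class levels.

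**Figure D4:**
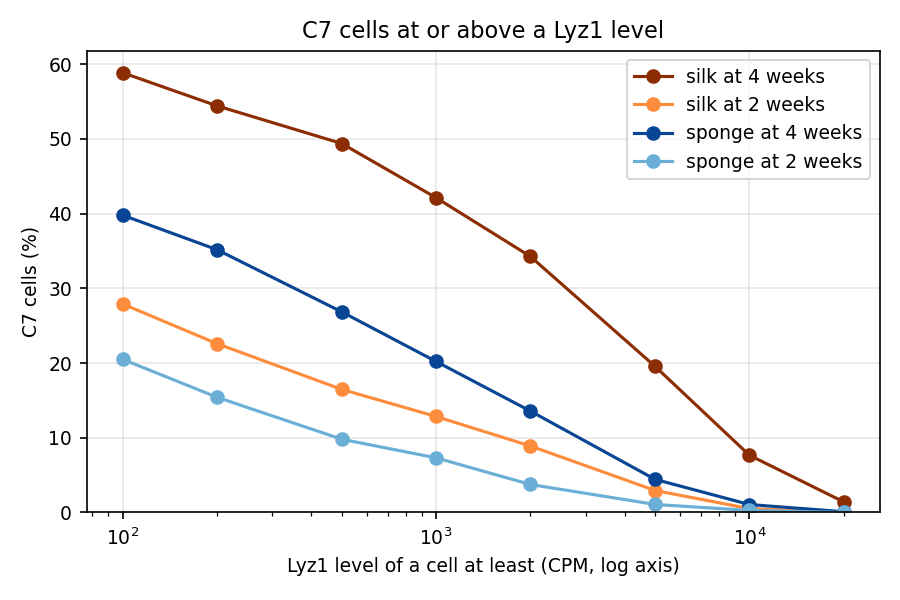
Percent of C7 cells (vertical axis) whose Lyz1 level is at or above the CPM on the horizontal log axis, for the 4 granuloma libraries. The line of silk at 4 weeks lies above the others throughout, with 42.1% of cells at 1000 CPM against 7.31% in sponge at 2 weeks.

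C7 cells with at least 2000 UMIs were set apart as Lyz1-high (at least 1000 CPM) or Lyz1-zero (no UMI), a range and not a cell type that was set after its values were seen. Lyz1-high cells numbered 196 of 465, 556 of 4293, 399 of 1909 and 80 of 1074 in silk at 4 weeks, silk at 2 weeks, sponge at 4 weeks and sponge at 2 weeks, and Lyz1-zero cells 174, 2898, 1052 and 779. Cells between 500 and 2000 CPM, near the limit, numbered 66, 326, 257 and 65. Lyz1-high cells were deeper, with medians of 8004, 7183.5, 6116 and 7506 UMIs, against 6215, 5899.5, 4320.5 and 6225 in Lyz1-zero cells. The part of depth in what follows was not tested.

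Lyz2 was also higher in Lyz1-high cells in each library, with log2 ratios of high over zero of 0.062, 0.26, 0.23 and 0.75. Of 2492 genes compared, 0 reached 2-fold in the same direction in all 4 libraries, and within single libraries 0.361%, 0.12%, 0.0803% and 0.12% were higher and 0.241%, 0%, 0.201% and 0.0401% lower. Cd81, a tetraspanin, came first by its smallest ratio, at 244 CPM in Lyz1-high against 96.0 CPM in Lyz1-zero cells of silk at 4 weeks, and with log2 ratios of 1.26, 1.11, 0.81 and 0.95. Retnla, a secreted protein of alternatively activated macrophages, followed with 1.94, 2.59, 0.63 and 2.40. Ctsk, the collagen-cleaving cathepsin K, had 0.47, 0.60, 0.71 and 0.65, and the chemokine Ccl6 had 0.79, 0.65, 0.47 and 0.94.

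Il1b, the inflammatory cytokine, was lower in Lyz1-high cells of each library, at 299 against 622 CPM in silk at 4 weeks and with log2 ratios of -1.03, -0.60, -1.28 and -0.90. Arg1 and Ass1, enzymes of arginine metabolism, and the chemokine Ccl24 were lower too. Arg1 had 1.52 CPM in Lyz1-high against 132 CPM in Lyz1-zero cells of silk at 4 weeks, and its log2 ratios were -3.63, -0.48, -1.27 and -0.92. Those of Ccl24 were -1.34, -0.49, -1.50 and -0.72. Cells of 1 library are not replicates, so these are descriptions of 4 libraries.

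**Figure D5:**
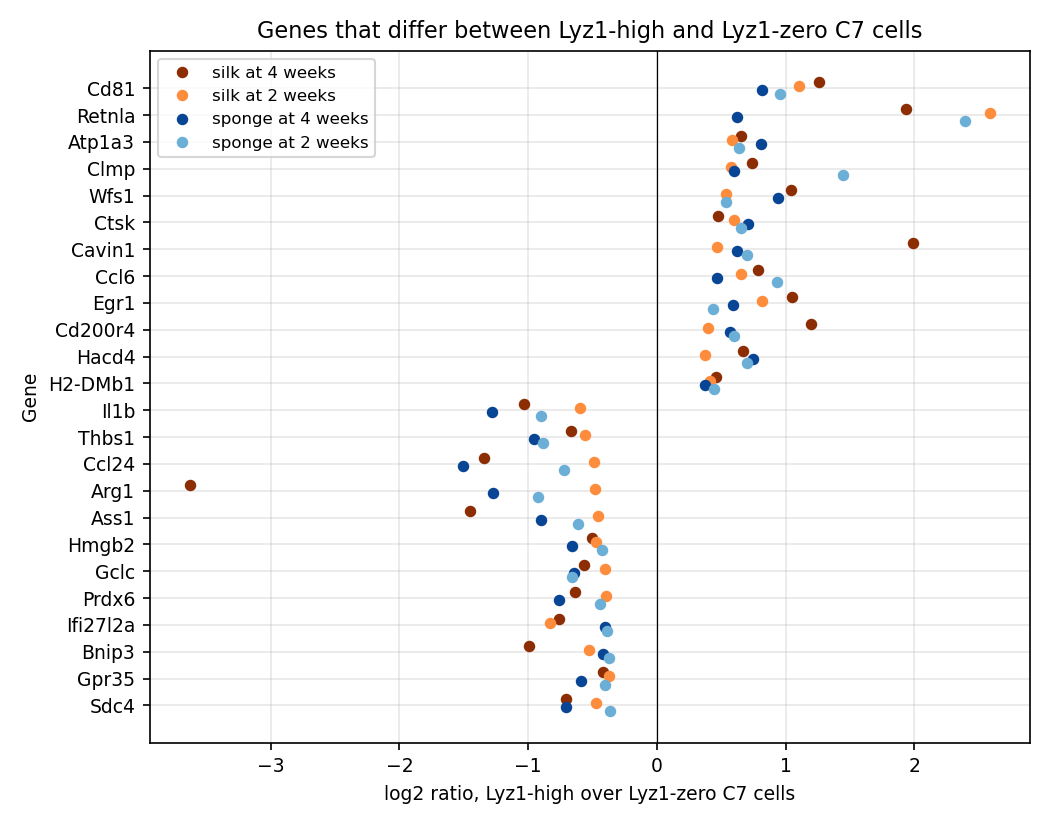
log2 ratio of CPM (10 CPM added) in Lyz1-high over Lyz1-zero C7 cells (horizontal axis) for 12 higher and 12 lower genes (vertical axis). Over the 4 granuloma libraries, the higher genes were taken by their smallest log2 ratio and the lower genes by their largest. Each point is a library. Cd81 and Retnla lie to the right of 0 and Il1b and Arg1 to the left in each library, with the Arg1 point of silk at 4 weeks at -3.63.

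In the summed macrophage class, none of the measured genes of a list of 50 antibacterial and lysosomal genes reached 2-fold upward between the granulomas. The list held lysozyme-like and peptidoglycan recognition genes, neutrophil granule proteins, cathepsins and other lysosomal enzymes. Of the whole list, 23 to 29 genes passed the limits on counts in the macrophage comparisons. No lysozyme-like or peptidoglycan recognition gene was among those that passed. The highest of these read 7.57 CPM in the class, in silk at 4 weeks, so the list does not show whether they differed. Of 23, 0 reached 2-fold upward in silk over sponge at 4 weeks and 1 downward, the cathepsin Ctsl, beside 0.42% and 0.614% of all genes. At 2 weeks 0 of 27 were higher and 5 lower, Wfdc17, Nos2, Acod1, Gbp2 and Ctsl, beside 1.75% and 4.65% of all genes. For 4 over 2 weeks, 0 of 23 were higher or lower in silk (0.833% and 0.961% of all genes) and in sponge 0 of 27 were higher and 5 lower, Slpi, Wfdc17, Nos2, Acod1 and Gbp2 (1.86% and 4.04% of all genes). With upward shares this low, a count of 0 says nothing particular about the list. Within C7, 1 of 23 reached 2-fold upward for silk over sponge at 2 weeks, Tlr2 at 274 against 121 CPM, and 2 downward. Within C6, 1 of 24 did so in that comparison, Cybb, and 1 downward. Of all genes, 0.979% in C7 and 0.86% in C6 reached 2-fold upward there. In the class, smaller differences in the same directions as those of Lyz1 did occur. Man2b1, the lysosomal alpha-mannosidase, read 290.2, 183, 216 and 173 CPM in macrophages of silk at 4 weeks, silk at 2 weeks, sponge at 4 weeks and sponge at 2 weeks. Cybb, a subunit of the phagocyte oxidase, read 2156, 2109, 1385 and 1076 CPM, and Mpeg1, the pore-forming perforin-2, read 881, 759.8, 677 and 544 CPM, so both were higher in silk than in sponge and at 4 than at 2 weeks. Man2b1 had the full order of Lyz1, while Cybb and Mpeg1 were higher in silk at 2 weeks than in sponge at 4 weeks. These 3 were chosen after their values were seen.

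The list's median log2 ratios in these 4 comparisons were 0.06, -0.04, -0.03 and -0.28, against -0.04, 0.06, -0.06 and 0.03 over all genes. Nos2, the inducible nitric oxide synthase, had 0, 0.609, 0.192 and 90.5 CPM in silk at 4 weeks, silk at 2 weeks, sponge at 4 weeks and sponge at 2 weeks, so the library with least Lyz1 had most Nos2. Its level in C7 was 0, 0.232, 0 and 2.77 CPM, in the same order. Against the control, 4 of 25, 6 of 25, 3 of 25 and 9 of 29 list members reached 2-fold upward and 7, 8, 9 and 6 downward, in the order silk at 4 weeks, silk at 2 weeks, sponge at 4 weeks, sponge at 2 weeks. The shares of all genes were 9.97%, 10.9%, 11.0% and 11.9% upward and 5.15%, 5.85%, 5.68% and 5.67% downward.

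Macrophage genes already known from these libraries to differ along with Lyz1 were Itgax, Cx3cr1, Mmp12 and Gpnmb, and they support nothing further. In C7, Itgax, the integrin CD11c, read 659, 329, 371 and 249 CPM and the chemokine receptor Cx3cr1 199.7, 132, 91.4 and 38.1 CPM in silk at 4 weeks, silk at 2 weeks, sponge at 4 weeks and sponge at 2 weeks. Both were highest in silk at 4 weeks, but the span of Itgax was smaller than that of Lyz1. Mmp12 read 5514, 3264, 3777 and 2983 CPM and Gpnmb 1964, 659, 1243 and 1474 CPM, so Gpnmb in C7 was lowest in silk at 2 weeks.

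The pattern of each gene over subclusters and libraries was compared with that of 4523 others, by Pearson correlation of log2(CPM + 10) over 38 sums, one for each myeloid subcluster and library with at least 50 cells. Most like Lyz1 were Slc29a1, a nucleoside transporter (0.84), Crat, carnitine acetyltransferase (0.84), Stac2 (0.83), Lpl, lipoprotein lipase (0.83), Dok2 (0.82), the lipid receptor Cd36 (0.81), Tbxas1, thromboxane synthase (0.81), the transcription factor Cebpa (0.81), Tnfsf12 (0.81) and Adam15 (0.81). Over the 21 granuloma macrophage sums their values were 0.58 to 0.79. Their spans in C7 were smaller than that of Lyz1: Slc29a1 read 116, 98.8, 123 and 63.4 CPM and Lpl 4454, 2350.3, 3643 and 3749 CPM in silk at 4 weeks, silk at 2 weeks, sponge at 4 weeks and sponge at 2 weeks.

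Among the genes most like Lyz2 were Cd302 (0.90), Itgb5 (0.90), Lamtor4 (0.90), Tnfsf13 (0.90), Plod3 (0.90), Smpdl3a (0.90), Cln8 (0.89), Lrp1 (0.89) and Ctsa (0.89). No gene stood on both lists. Over the 21 granuloma macrophage sums alone, the values differed widely: Cln8 had 0.023 and Smpdl3a 0.87. Lyz1 and Lyz2 themselves had 0.74 over all 38 sums but 0.15 over the 24 macrophage sums. The sums share libraries, depth and the normalization, so no p is given.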

How the data were processed

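Cells were profiled with a droplet-based 3′ kit, per the labels' protocols. The authors deposited raw UMI counts, and a table of cells with library, class, subcluster, total and percent of mitochondrial UMIs. Cell Ranger 3.0.0 and Seurat 3.0 are named, without roles, per the submitters' processing notes; mm10 is the build named there; filters on cells: not given in the sources used here. Counts were summed per library and subcluster and scaled to CPM. Log2 ratios had 0.5 counts added to each sum and conditional binomial intervals. Levels and shares had exact Clopper-Pearson intervals (all 95%). Counts of genes used log2((CPM + 10)/(CPM + 10)), at least 100 UMIs in both libraries together and 50 CPM in the higher. Lyz1-high and Lyz1-zero cells were compared over genes with 20 UMIs and 50 CPM in each library, without ribosomal, mitochondrial and unnamed genes. Units had at least 50 cells. Each group had 1 library, so no p-value was computed. Named genes were Lyz1, Lyz2, the 10 most like each (1 of them is not reported here), list members past 2-fold, and the 4 macrophage genes; genes of the Lyz1-high comparison were chosen after their values were seen. Members and lists were chosen with earlier results of these data known. Scripts were tested on simulated data. Alternatives used thinned cells, edgeR 4.0.16 TMM, DESeq2 1.42.0 size factors, and scrublet scores in scanpy 1.11.5 at 0.8% doublets per 1000 cells; doublets were kept otherwise. Sequences came from RefSeq and GENCODE tables.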

Additional observations from a re-analysis of the deposited data

Results flagged for a closer look

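Lyz2 in subcluster C3, the one with most monocyte markers, moved in opposite directions in the materials and at the times. The log2 ratio of 4 over 2 weeks was -0.097 in silk and 0.078 in sponge, and that of silk over sponge was -0.14 at 4 weeks and 0.037 at 2 weeks. These are the same 4 libraries seen from 2 sides, the sizes are small, and the difference between them was not tested, since each group had 1 library. With each cell thinned to 500 UMIs, 4 over 2 weeks in sponge became -0.038 and silk over sponge at 2 weeks -0.020, beside -0.052 for 4 over 2 weeks in silk and -0.034 for silk over sponge at 4 weeks, so the directions were then the same.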

How the results depend on the processing

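The 10 results for the macrophage class kept their direction under each of 78 alternatives, but most left their counting intervals. In the order silk over sponge at 4 weeks, silk over sponge at 2 weeks, 4 over 2 weeks in silk, 4 over 2 weeks in sponge and the smallest ratio to the control, the log2 values that left the interval were as follows. Thinning each cell to 500 UMIs gave Lyz1 1.88, 1.95, 2.35, 2.43 and -1.46, and Lyz2 0.52 (silk over sponge at 2 weeks), 0.15, 0.20 and -1.04. TMM scaling gave Lyz1 2.20 and 2.64 for time in silk and sponge, and Lyz2 0.47, 0.54, 0.061, 0.13 and -0.82. Median-of-ratios size factors gave Lyz1 2.06 (2 weeks), 2.21, 2.63 and -1.26, and Lyz2 0.47, 0.50, 0.075, 0.11 and -0.75. Leaving out cells of highest doublet score gave Lyz1 2.30 and 2.80 for time in silk and sponge, and Lyz2 0.60 (2 weeks), 0.25 (time in sponge) and -0.87. The mean over cells of CPM gave Lyz1 1.83 (4 weeks), 2.56 (time in sponge) and -1.59, and Lyz2 0.48, 0.50, 0.15, 0.17 and -1.03. Leaving out cells over 10% mitochondrial UMIs gave Lyz1 1.69 (4 weeks) and 2.67 (time in sponge), and Lyz2 0.51, 0.57, 0.17 (time in sponge) and -0.83. In a further alternative each subcluster had the same weight in both libraries, the mean of its 2 UMI shares. Only subclusters with at least 50 cells in both libraries were used. It gave Lyz1 1.59, 1.13, 2.31 and 2.45, and Lyz2 0.41, 0.30, 0.15 and 0.057, and no value against the control. The 2.45 rests in part on C4 of sponge at 4 weeks, where 2 cells held 316 and 139 of 488 Lyz1 UMIs. Leaving out the highest cell of each subcluster, chosen after seeing the data, gave Lyz1 2.27 (2 weeks), 2.19, 2.84 and -1.48, and Lyz2 0.43 (4 weeks), 0.090 (time in silk) and -0.86. The Lyz1 ratio of silk over sponge at 2 weeks moved most, to 1.13 with the same weights in both libraries. This was by construction of that alternative, since the makeup of the class differed.

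Of 172 alternatives for 58 results within subclusters, 6 reversed. They were Lyz1 in C9 for silk over sponge at 2 weeks (1.41 without cells of highest doublet score and 0.51 without the highest cell), Lyz1 in C8 (-0.042 thinned) and Lyz2 in C3 (-0.038 thinned) for 4 over 2 weeks in sponge, Lyz2 in C3 for silk over sponge at 2 weeks (-0.020 thinned) and Lyz2 in C9 for 4 over 2 weeks in sponge (0.021 without cells of highest doublet score). The cause was not tested. No paired analysis was possible because each group had 1 library. With 1 library per condition the spread between animals is unknown, silk at 4 weeks rests on 1045 macrophages, and reads shared by the genes may be split wrongly between them.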

Other observations

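NK and T cells of silk at 4 weeks held 115 Lyz1 UMIs in 16 of 153 cells, 44 of them in 1 cell, and Lyz1 made up 25.1% of their lysozyme UMIs (exact 95% interval 21.2% to 29.3%), against 13.1% in the macrophages of that library. In the NK and T cells of silk at 2 weeks, sponge at 4 weeks and sponge at 2 weeks the share was 2.22%, 7.36% and 0.818%, and in those of the control it was 1.60%.

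C8, which was not compared where it had under 50 cells, had its highest Lyz1 levels in its smallest samples. It read 4010 CPM in silk at 4 weeks (24 cells, 318 and 256 of 1178 UMIs in 2 cells) and 1613 CPM in the control (27 cells). Lyz1 made up 24.0% of lysozyme UMIs in C8 of silk at 4 weeks and 15.5% in C8 of the control.

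C9, the subcluster with dendritic cell markers, had little of either gene. Lyz1 read 5.93, 6.18, 14.9, 15.5 and 33.3 CPM and Lyz2 596, 1289, 713, 1340.1 and 1621 CPM in silk at 4 weeks, silk at 2 weeks, sponge at 4 weeks, sponge at 2 weeks and the control.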
